A study of Sus scrofa with 70 samples.

Results

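AMH, SOX9, FSHR, INHA, INHBB, GATA4, WT1 and DHH are 8 genes listed here as Sertoli cell genes, taken by symbol from the 35680 genes of the deposited RNA-seq table. All 8 were among the 19911 genes that reached 1 TPM in 3 or more libraries. Their TPM, transcripts-per-million, which is relative to transcript length and library total, was summed over all transcripts of a gene. Differences between groups are differences of mean log2(TPM + 1), a scale that understates changes of low genes.

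Sertoli cells line the seminiferous tubule and support germ cells through meiosis and spermiogenesis. Pituitary follicle-stimulating hormone reaches them through the receptor FSHR, and they return inhibin, a dimer of the INHA subunit with INHBB or INHBA, which lowers the secretion of that hormone. AMH removes the Müllerian duct in the male fetus and is low in the adult, DHH is the hedgehog ligand for the cells around the tubule, and SOX9, GATA4 and WT1 are transcription factors of testis formation that the adult cell keeps.

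Boars aged 12 months gave testis and epididymis, and of the accessory glands the prostate, bulbourethral and vesicular gland. One breed was the Banna mini-pig inbred line, here BMI, and the other the Diannan small-ear pig (DSE), from which BMI descends by mating of close relatives. No animal carried a transgene or received a treatment according to the labels. RNA-seq covered 30 libraries, 3 for each breed and gland, so testis had 6 libraries and the other glands 24. Iso-seq, which reads whole transcripts, covered 10 libraries, 1 for each breed and gland, with 231413 to 458697 full-length reads. The labels do not tie a library to an animal, so p-values measure the spread between libraries. TPM keeps no depth, and the depth of the RNA-seq libraries is therefore unknown from these values. In bulk tissue, fewer Sertoli cells and less RNA per cell cannot be told apart, and the cells that express a member are not given.

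Testis was checked against markers of its cells. All 6 Leydig cell markers, all 9 spermatid markers and 7 of 8 spermatocyte markers were called higher in testis than in the other glands, and all 7 epithelial markers were called lower. Over all genes tested 34.5% were called higher and 12.7% lower. DSE testis replicate 2 stood apart from the other 5 testes. The spermatid markers summed to 25704 TPM in it against 77021 to 117695 TPM in the other 5, the spermatocyte markers to 114 TPM against 294 to 431 TPM, and the Leydig cell markers to 63648 TPM against 18624 to 32451 TPM. Results that rest on this library are given with and without it.

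The first question was which of the 8 genes separate testis from the rest of the male tract. FSHR, INHA, GATA4, WT1, DHH and INHBB were called higher in testis, SOX9 was called lower, and AMH did not pass. A gene was called at a Benjamini-Hochberg adjusted p below 0.05 in limma and a log2 difference of at least 1. Thus 6 members were called higher and 1 lower, where 34.5% of all genes tested were called higher, 12.7% lower and 47.3% in either direction. The median log2 difference was 2.52 over the members and 0.31 over all genes tested. Without DSE testis replicate 2 the same 6 members were higher and SOX9 lower, with 49% of all genes called.

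**Figure D1:**
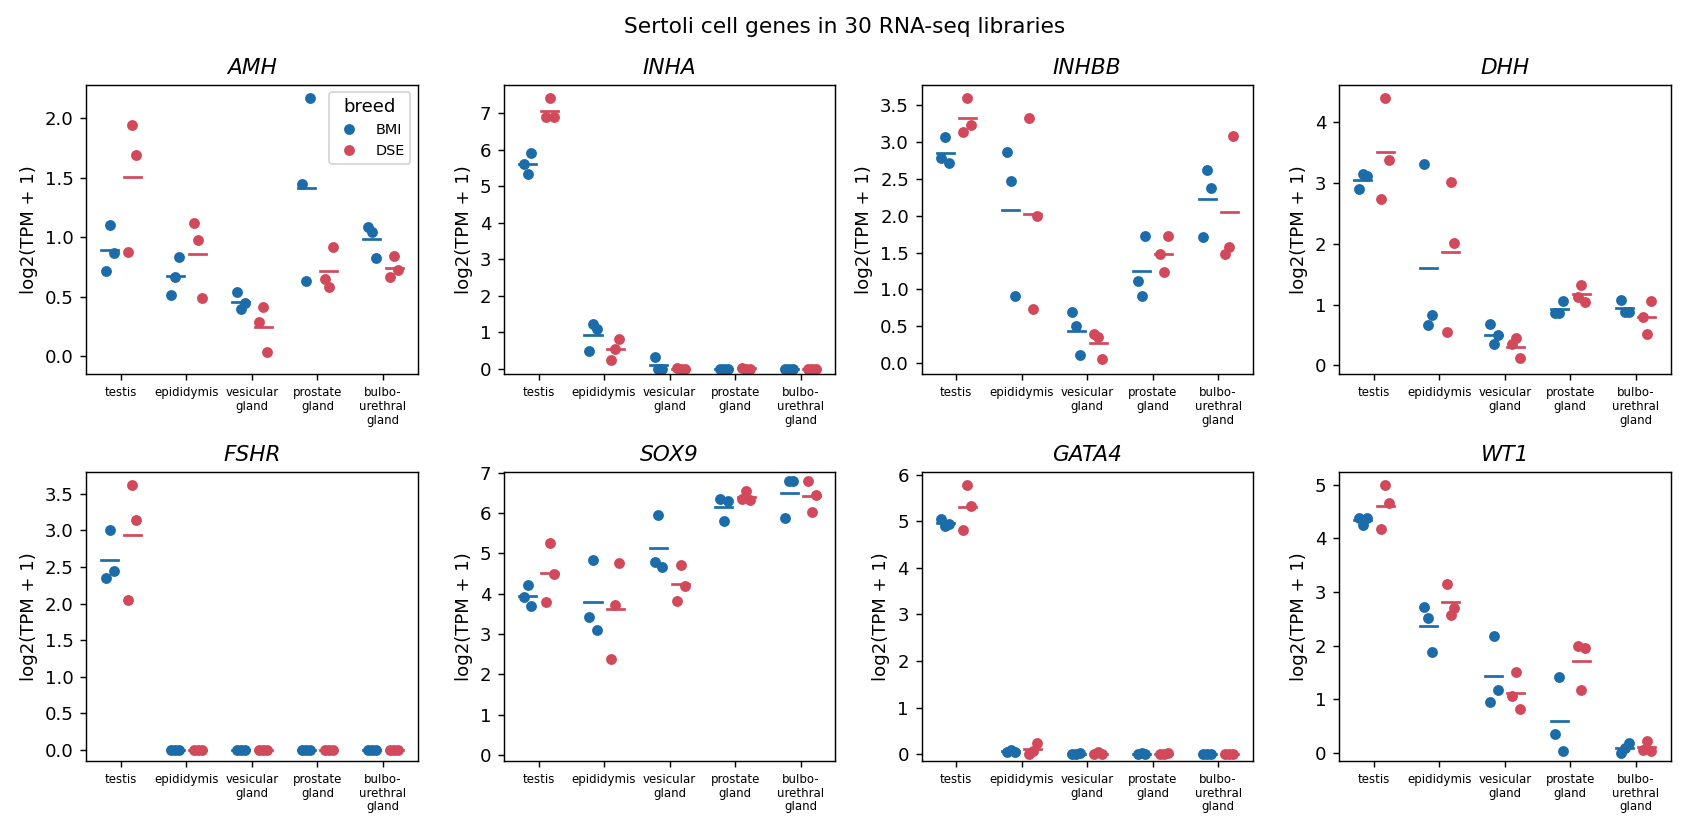
Each point is 1 RNA-seq library, and each line the mean of 3 libraries, on the y axis of log2(TPM + 1), by gland and breed. FSHR, INHA and GATA4 are near 0 outside testis, while SOX9 is highest in bulbourethral and prostate gland.

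FSHR, the follicle-stimulating hormone receptor, lies at chr3:91607305-91774683 on the plus strand (Sscrofa11.1). Its TPM was 4.09, 7.05 and 4.42 in BMI testis and 3.14, 11.3 and 7.80 in DSE testis. It is listed at 0 in all 24 libraries of the other glands, so every testis library lay above every other library. The log2 difference was 2.77 ± 0.13 (SE; adjusted p = 2.86e-16), and 5.87 with a pseudocount of 0.1 in place of 1. Iso-seq counted 6 full-length reads of FSHR in BMI testis and 6 in DSE testis, and 0 in each of the other 8 libraries. A count of 0 allows up to 6.54 RPM (full-length reads-per-million of the library) in the deepest of these 8 libraries, BMI epididymis, and up to 12.96 RPM in the shallowest, DSE epididymis. BMI testis had 13.2 RPM (exact Poisson 95% interval 4.84 to 28.7), and each of the 8 limits, taken 1 library at a time, lies inside that interval. Such intervals and limits cover counting error only.

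The Iso-seq transcript of FSHR began at 91607236, 69 bases upstream of the Ensembl start. The 250 bases before it, at chr3:91606986-91607235 on the plus strand, are shown because FSHR is the only member listed at 0 in every library outside testis. Capitals mark matches to a GATA motif, searched on both strands. The letters AGATAA were searched for, and so were AGATAG and, with another opening base, the letters TGATAA as well as the form TGATAG.
FSHR upstream window: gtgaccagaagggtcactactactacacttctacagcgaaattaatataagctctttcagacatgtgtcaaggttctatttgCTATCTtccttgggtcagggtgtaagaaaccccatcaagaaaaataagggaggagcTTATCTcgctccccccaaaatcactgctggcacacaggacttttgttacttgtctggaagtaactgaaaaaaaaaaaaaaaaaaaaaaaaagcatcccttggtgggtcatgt

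The FSHR window held 2 GATA matches, 168 and 112 bases before the start, both on the minus strand. Of 19549 windows of the same length before RefSeq protein-coding genes of this build, 20.1% held at least 1 GATA match. The FSHR window did not hold AGGTCA, the core of the NR5A1 motif (12.2% of all windows), CACGTG, an E-box (6.39%), or the SOX letters ACAAAG and ACAATG (18.4%). A match of letters describes the sequence and not binding.

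GATA4 lies at chr14:14858457-14939941 on the plus strand, and its product binds GATA motifs. The TPM of GATA4 was 32.1, 28.97 and 29.7 in BMI testis and 27.1, 53.7 and 39.4 in DSE testis. Outside testis it reached at most 0.183 TPM, in DSE epididymis replicate 3, and it is listed at 0 in all 6 bulbourethral gland libraries. The testis libraries did not overlap with the others, and the log2 difference was 5.11 ± 0.096 (SE; adjusted p = 1.56e-23). It was called in each alternative, at 2.55 on Ensembl transcripts only and 8.22 with a pseudocount of 0.1 in place of 1. All 35 full-length reads of GATA4 came from testis, 19 in BMI and 16 in DSE.

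GATA4 had 3 places of transcription start in the annotation merged from Ensembl and Iso-seq. The middle start, at 14884653, took between 43.6% and 65.6% of the GATA4 TPM of a testis library, the distal one, at 14858457, between 19.4% and 39.1%, and the Ensembl start nearest to the gene body, at 14888454, between 11.3% and 19.5%. The order of these 3 starts was the same in all 6 testis libraries. The isoform with the most full-length reads, PB.5744.3, begins at the middle start and had 15 reads in BMI testis and 8 in DSE testis. At the distal start 5 reads were counted, all in DSE testis, although salmon assigned distal transcripts 5.76 to 8.35 TPM in the BMI testes.

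INHA encodes the alpha subunit of inhibin, which activin lacks, and lies at chr15:121580803-121586006 on the plus strand. It was the most abundant member in every testis library, with 48.4, 39.2 and 59.7 TPM in BMI and 118.1, 169.2 and 118.1 TPM in DSE. In epididymis INHA lay between 0.184 and 1.33 TPM, with a median of 0.618 TPM, and it is listed at 0 in all 6 libraries of bulbourethral gland and in 5 of prostate gland. The log2 difference of testis was 6.15 ± 0.12 (SE; adjusted p = 2.74e-23). All 25 full-length reads of INHA came from testis.

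The INHA values are uncertain in every gland. Of the 2489 exonic bases of its only transcript, 886 (35.6%) overlap exons of OBSL1 on the opposite strand, and the RNA-seq kit is not stated to keep strand. OBSL1 lay between 16.4 and 60.5 TPM in testis and between 1.75 and 67.9 TPM outside it, and over those 24 libraries log2(TPM + 1) of INHA and OBSL1 had a Pearson r of 0.76. The full-length reads began at 121581957, 1154 bases downstream of the Ensembl start and past the last base shared with OBSL1, 121581688. The part of OBSL1 reads in the INHA values was not tested.

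INHBB, the beta B subunit of inhibin and activin, lies at chr15:30999520-31004405 on the minus strand. Its TPM was 5.85, 7.38 and 5.54 in BMI testis and 7.73, 11.07 and 8.41 in DSE testis. Bulbourethral gland followed with a median of 3.22 TPM, from 1.78 to 7.45, then epididymis with 3.77 TPM, from 0.663 to 9.04, in the order of their mean log2 levels. The groups overlapped, since 3 of the 24 other libraries lay above the lowest testis. Testis was higher than the other glands by 1.61 ± 0.28 (SE; adjusted p = 1.61e-05), but the step to bulbourethral gland alone, 0.95 (95% interval 0.21 to 1.69; adjusted p = 0.022), stayed under the size needed for a call. Vesicular gland was lowest with 0.042 to 0.616 TPM, below prostate gland by 1.01 on the log2 scale (adjusted p = 0.032), a call that was lost with no filter (adjusted p = 0.061) and with size factors (adjusted p = 0.053). No full-length read was assigned to INHBB alone, and 8 reads of an isoform labelled jointly with a neighbouring gene came from epididymis and vesicular gland, with 0 from testis.

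AMH, at chr2:76414427-76418312 on the plus strand, was the lowest member in testis. Its TPM was 0.642, 1.15 and 0.820 in BMI testis and 0.834, 2.85 and 2.23 in DSE testis, against 0.0261 to 3.50 TPM in the other glands. The highest value of all belonged to BMI prostate gland replicate 3, and 11 of the 24 other libraries lay above the lowest testis. The log2 difference of 0.44 ± 0.16 (SE; adjusted p = 0.015) was too small for a call and was 0.33 (adjusted p = 0.072) without DSE testis replicate 2 and 0.88 (adjusted p = 0.012) with a pseudocount of 0.1. No neighbouring pair in the order testis, prostate gland, bulbourethral gland, epididymis, vesicular gland was called, and the step from testis to prostate gland was 0.13 (95% interval -0.28 to 0.54).

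The Ensembl model of AMH shares 1350 of its 2959 exonic bases (45.6%) with exons of SF3A2 on the same strand, and SF3A2 lay between 41.8 and 55.4 TPM in testis. Iso-seq gave 2 full-length AMH reads in BMI testis, 1 in BMI prostate gland and 0 in DSE testis. These reads began at 76415566, 1139 bases downstream of the Ensembl start but still before the last base shared with SF3A2, 76415776. AMH levels are therefore uncertain in every gland.

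DHH, the desert hedgehog ligand, lies at chr5:15114527-15119577 on the minus strand. Its TPM was 6.49, 7.88 and 7.66 in BMI testis and 5.70, 20.2 and 9.46 in DSE testis. The epididymis libraries ranged from 0.463 to 8.90 TPM, with BMI replicate 1 and DSE replicate 2 above the lowest testis, while the other 22 libraries outside testis lay below it. Testis was higher than the other glands by 2.27 ± 0.29 (SE; adjusted p = 1.52e-07), and higher than epididymis by 1.55 ± 0.37 (SE; adjusted p = 0.00063). No full-length read of DHH was counted in any of the 10 Iso-seq libraries, so its transcript structure rests on the Ensembl model.

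SOX9, the factor that starts Sertoli cell differentiation and is also used by many epithelia, lies at chr12:8642158-8647683 on the minus strand. In BMI testis it had 14.1, 17.6 and 12.0 TPM, and in DSE testis 12.98, 37.3 and 21.4 TPM. Bulbourethral gland had a median of 98.3 TPM, from 57.8 to 110.7, and prostate gland 79.4 TPM, from 54.4 to 91.9, so that all 12 of these libraries lay above every testis. The other glands overlapped with testis, at 13.1 to 60.9 TPM in vesicular gland and 4.18 to 27.4 TPM in epididymis.

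Testis differed in SOX9 from the mean of the other glands by -1.05 ± 0.27 (SE; adjusted p = 0.0014), a value close to the size needed for a call. The call was lost without BMI testis replicate 3 (-0.98), DSE testis replicate 1 (-0.87), BMI epididymis replicate 2 (-0.98), DSE epididymis replicate 3 (-0.97) or BMI vesicular gland replicate 2 (-0.99), since the log2 difference then fell under 1. In the order of glands, prostate gland was above vesicular gland by 1.59 (adjusted p = 0.0010). The step from bulbourethral to prostate gland was 0.19 (95% interval -0.53 to 0.90), that from vesicular gland to testis 0.45 (-0.26 to 1.17) and that from testis to epididymis 0.53 (-0.18 to 1.25), none of them called.

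The full-length reads of SOX9 numbered 801, of which 94 came from testis and 331 from DSE prostate gland. Vesicular gland gave 102 reads in BMI and 0 in DSE, which allows up to 9.43 RPM in that DSE library, although the DSE vesicular glands had 13.1 to 25.3 TPM in RNA-seq. PB.3499.1, a match to the Ensembl transcript that starts 368 bases upstream of it, held 793 of the reads. In contrast, salmon gave the Ensembl transcript only 36.1% to 61.8% of the SOX9 TPM in testis and the rest to 2 Iso-seq isoforms, which together had 6 full-length reads in all glands and 0 in testis. The division of SOX9 among its transcripts thus differed between the 2 assays, and the cause was not tested.

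WT1, a zinc-finger factor of gonad and kidney formation, lies at chr2:28411450-28455998 on the plus strand. It had 19.9, 18.0 and 19.8 TPM in BMI testis and 17.1, 30.9 and 24.2 TPM in DSE testis, with no overlap with the other glands. Epididymis followed with a median of 5.23 TPM, from 2.68 to 7.88, vesicular gland with 1.16 and prostate gland with 1.47 TPM, and bulbourethral gland did not exceed 0.162 TPM. Testis was higher than the other glands by 3.19 ± 0.19 (SE; adjusted p = 9.09e-14). Epididymis was lower than testis by 1.88 (adjusted p = 2.35e-07) but higher than vesicular gland by 1.31 (adjusted p = 7.51e-05), a step that was 0.58 (adjusted p = 0.068) with size factors. Vesicular and prostate gland differed by 0.12 (95% interval -0.39 to 0.63) and were not told apart.

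WT1 transcripts differ at the end of an exon in the zinc-finger region, where 9 bases are kept or skipped. The longer form carries lysine, threonine and serine between the last zinc fingers and is known as the KTS form. The exon end is shown in both forms, at chr2:28452079-28452102 and chr2:28452079-28452111 on the plus strand, with the 9 bases in capitals, together with the 51-base exon at chr2:28429868-28429918 that some transcripts leave out.
WT1 exon end without the 9 bases: agacccacaccaggactcatacag
WT1 exon end with the 9 bases: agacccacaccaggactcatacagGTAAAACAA
WT1 alternative exon: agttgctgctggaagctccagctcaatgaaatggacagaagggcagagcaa

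Transcripts with the 9 bases took 43.5% to 62.8% of the WT1 TPM in testis, with a median of 55.6%, and 46.9% to 85.8% in epididymis, with a median of 68.8%. These ranges overlapped. Transcripts with the 51-base exon took 43.1% to 57.9% in testis and 29.8% to 67.4% in epididymis. ENSSSCT00000014542, with the 9 bases and without the 51-base exon, had the highest mean in testis, 10.7 ± 2.33 TPM (SD, n = 6).

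The next transcript in testis, ENSSSCT00000070124, has a first exon of 10 bases inside the gene. Its mean was 8.19 ± 0.964 TPM (SD, n = 6) in testis and 0.492 TPM in epididymis, with a log2 difference of testis from the other glands of 3.03 ± 0.15 (SE; adjusted p = 5.37e-15), which was 5.70 with a pseudocount of 0.1. It took 42.6%, the median, of the WT1 TPM of a testis library, but 22.9% in DSE testis replicate 2. No Iso-seq isoform was classified as a match to it.

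**Figure D2:**
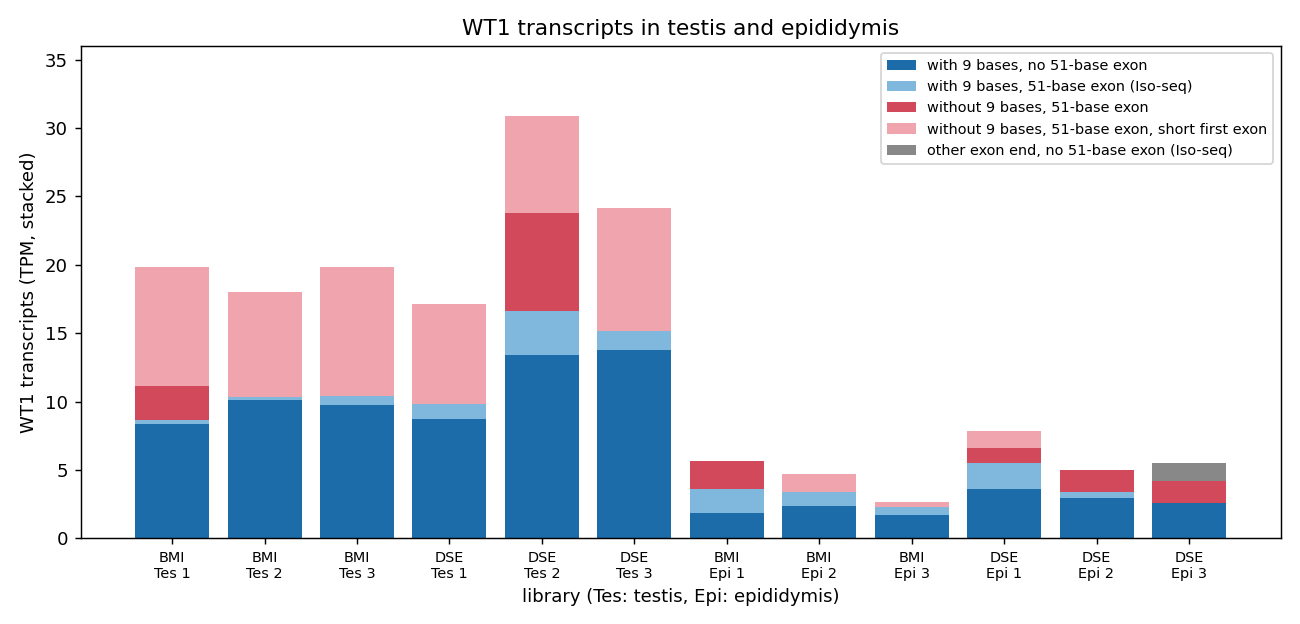
Bars stack the TPM of the 5 WT1 transcripts in each testis and epididymis library, coloured by whether the exon end keeps the 9 bases and whether the 51-base exon is present. The transcript with the short first exon is a large share of every testis bar, 22.9% to 47.5%.

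Iso-seq counted 131 full-length reads of WT1, 65 of them in testis. Isoforms matched to an Ensembl transcript were classed by that transcript. Of the testis reads, 62 were of isoforms classed with the 9 bases, 1 of an isoform without them and 2 of PB.10177.140, an isoform that ends the exon 1 base further. In the other glands 59 reads had the 9 bases, 2 lacked them and 5 were of PB.10177.140. PB.10177.137, an incomplete match to ENSSSCT00000014542, had the most reads of WT1, with 15 in BMI testis and 18 in DSE testis. RNA-seq thus divided WT1 more evenly between the forms than the full-length reads did, and the cause was not tested.

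Over all 8 genes, 15 of 18 transcripts with a TPM passed the filter, and 10 of these were called between testis and the other glands, beside 37.9% of all transcripts. The highest in testis for GATA4, PB.5744.3, had 20.7 ± 7.17 TPM (SD, n = 6) and is listed at 0 elsewhere. For SOX9 it was ENSSSCT00000018780, with 8.34 ± 3.58 TPM (SD, n = 6) in testis, with a log2 difference from the other glands of -1.09 ± 0.21 (SE; adjusted p = 7.90e-05). AMH, DHH, FSHR, INHA and INHBB each had 1 transcript with a TPM, so their values are those of the gene.

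Pair by pair, 6 members were called between testis and epididymis, all higher in testis, where 51% of all genes were called. Against vesicular gland 6 were called (52.9% of all genes), against prostate gland 7 (48.8%) and against bulbourethral gland 6 (49.1%). SOX9 was the lower call against prostate gland (-2.04) and bulbourethral gland (-2.22). Outside testis, DHH, INHBB and WT1 were called higher in epididymis than in vesicular gland (36.5% of all genes), INHBB and SOX9 higher in prostate than in vesicular gland (14.8%), and WT1 higher in prostate than in bulbourethral gland (7.65%). From epididymis to prostate gland SOX9 (-2.57) was lower and WT1 (1.43) higher in epididymis, with 21.3% of all genes called, and to bulbourethral gland SOX9 was again lower (-2.76) and WT1 higher (2.49), also with 21.3%. Vesicular gland was below bulbourethral gland in INHBB (-1.78) and SOX9 (-1.77) and above it in WT1 (1.18), with 27.8% of all genes called. For testis the median log2 difference over all genes was -0.02 against epididymis, 0.81 against vesicular gland, 0.43 against prostate gland and 0.23 against bulbourethral gland. It was 0.74 for epididymis against vesicular gland and -0.46 for vesicular against bulbourethral gland. With size factors, DHH between epididymis and vesicular gland was 0.83 (adjusted p = 0.035), WT1 in that pair 0.58 and SOX9 between vesicular and bulbourethral gland -0.93 (adjusted p = 0.0069), and none of these was called. Several of these calls lay close to the size needed. INHBB between testis and epididymis was 1.03 and was not called without BMI testis replicate 2 (0.98), DSE testis replicate 2 (0.97), BMI epididymis replicate 3 (0.74) or DSE epididymis replicate 2 (0.71). INHBB between vesicular and prostate gland was lost without any of 5 libraries, and WT1 between prostate and bulbourethral gland without any of 3 prostate gland libraries and on Ensembl transcripts only (0.98). DHH between epididymis and vesicular gland was 0.90 without BMI epididymis replicate 1, and WT1 between vesicular and bulbourethral gland 0.99 without BMI vesicular gland replicate 2 and 0.98 on Ensembl transcripts only, none of them called.

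The genes most like each member over the 30 libraries, by Pearson r of log2(TPM + 1), are a description, since all libraries of a gland share its composition. GATA4 was most like SERPINA5, a serine protease inhibitor, with r of 0.9996, and among its 3 nearest was CYP11A1, which starts steroid synthesis in Leydig cells, with r of 0.999. INHA was most like INSL3, a Leydig cell hormone, with r of 0.992. Among the 3 nearest genes of DHH were REEP1 (0.961) and TTYH1 (0.961). SOX9 followed RHPN2 (0.956), KIAA1522 (0.944) and FAM110C (0.924), which had mean levels of 53.1, 49.3 and 41.3 TPM in bulbourethral gland. WT1 had ARSL (0.942) as its nearest gene with a symbol, INHBB had SMYD3 (0.885), and AMH had FBXL16 (0.786). Of the 24 genes found in this way, 8 had no symbol, among them all 3 of FSHR.

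Of 17 receptors, SMADs, binding proteins and other subunits of the TGF-beta family that passed the filter, 1 was called higher in testis and 6 lower, with a median of -0.30 beside 0.31 over all genes tested. Of all genes tested, 34.5% were called higher and 12.7% lower. SMAD9, which carries BMP and AMH signals, rose by 1.63 ± 0.35 (SE; adjusted p = 0.00018). SMAD7, an inhibitor of the pathway, changed by -1.90, ACVR1B, an activin receptor, by -1.83, and FST, the activin-binding follistatin, by -1.73. AMHR2, the receptor of AMH, did not pass the filter. INHBA, the other beta subunit, differed by 0.24 ± 0.32 (SE; adjusted p = 0.50).

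In the hedgehog pathway 2 of 14 genes were called higher (34.5% of all genes) and 0 lower (12.7%), with a median of -0.43. HHAT, the acyltransferase that makes hedgehog ligands active, was higher by 4.004 ± 0.21 (SE; adjusted p = 5.55e-15), with 61.6 TPM on average in testis and at most 5.67 TPM in another gland. CDON, a co-receptor, was higher by 1.06 ± 0.26 (SE; adjusted p = 0.00085) and was not called without DSE testis replicate 2. PTCH1, receptor and target of the pathway, differed by 0.23 ± 0.33 (SE; adjusted p = 0.53), and GLI1, a target factor, by -0.52 ± 0.20 (SE; adjusted p = 0.026).

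Of 14 genes downstream of FSHR, 7 were called higher (34.5% of all genes) and 1 lower (12.7%), with a median of 0.95. The count was 6 higher and 1 lower without DSE testis replicate 2, when PRKACB (1.07 with all libraries), a catalytic subunit of protein kinase A, was no longer called. PDE4A, which breaks down cyclic AMP, was higher by 3.01, and PRKAR2B and PRKAR2A, regulatory subunits of protein kinase A, by 2.92 and 2.38. ARRB1, an arrestin that ends receptor signals, changed by -2.83. Such genes are used by germ cells too, and the cells that express them are not given by bulk values.

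Among 19 other transcription factors and regulators of the gonad, 8 were called higher (34.5% of all genes) and 6 lower (12.7%). The median was 0.22. NR5A1, which drives AMH and steroid enzymes, was higher by 6.07 ± 0.11 (SE; adjusted p = 5.88e-24), DMRT1, which keeps the male fate of Sertoli cells, by 5.08 ± 0.13 (SE; adjusted p = 2.31e-21), and LHX2 by 1.58. EMX2 changed by -2.79, SIX4 by -2.43 and FGFR2 by -2.12.

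Of 14 other Sertoli cell products, 8 were called higher (34.5% of all genes) and 2 lower (12.7%), with a median of 1.46. ESPN, of the junctions between Sertoli cells and spermatids, was higher by 7.35 ± 0.72 (SE). It reached 491 TPM outside testis, within its range of 342 to 519 TPM in testis. FATE1 was higher by 6.85 and PRND by 6.51, with at most 0.567 and 1.40 TPM outside testis. OCLN, occludin of tight junctions, changed by -3.58 and KITLG, the ligand of KIT, by -1.23. When DSE testis replicate 2 was left out, GJA1 (1.18 with all libraries) was no longer called and TF (0.94) was called higher, and BMPR1A (-0.90) of the TGF-beta family, PECAM1 (-0.88) of the endothelial and CD163 (-0.99) of the macrophage markers were then called lower.

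The lists of other cells moved beside these in testis. The Leydig list had a median of 10.4, the spermatid list 10.2 and the spermatocyte list 4.45, while the median was -5.50 for epithelium, -2.94 for smooth muscle and peritubular cells, -1.51 for macrophages and -0.68 for endothelial cells. Of 6 spermatogonial markers 2 were called higher (34.5% of all genes) and 0 lower (12.7%), with a median of -0.13. By name, INSL3 (13.7), CYP17A1 (12.4) and STAR (10.9) led the Leydig list, PRM1 (13.5), TNP1 (12.5) and PRM2 (11.5) the spermatid list, and SYCP3 (6.84), PIWIL1 (5.84) and SYCE2 (5.59) the spermatocyte list, in which OVOL2 (-3.33) was lower. STRA8 (3.61) and UCHL1 (1.54) were the called spermatogonial markers, beside KIT (0.53), GFRA1 (-0.93), SALL4 (-0.84) and ZBTB16 (-0.78), which were not called. KRT19 (-6.87), KRT18 (-6.77) and KRT8 (-6.06) led the epithelial list, CNN1 (-4.46), ACTG2 (-4.23) and DES (-3.79) the muscle list and CSF1R (-1.94), CD68 (-1.78) and AIF1 (-1.70) the macrophages, of which MRC1 (2.33) was higher, and TEK (-1.06) was the endothelial call.

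**Figure D3:**
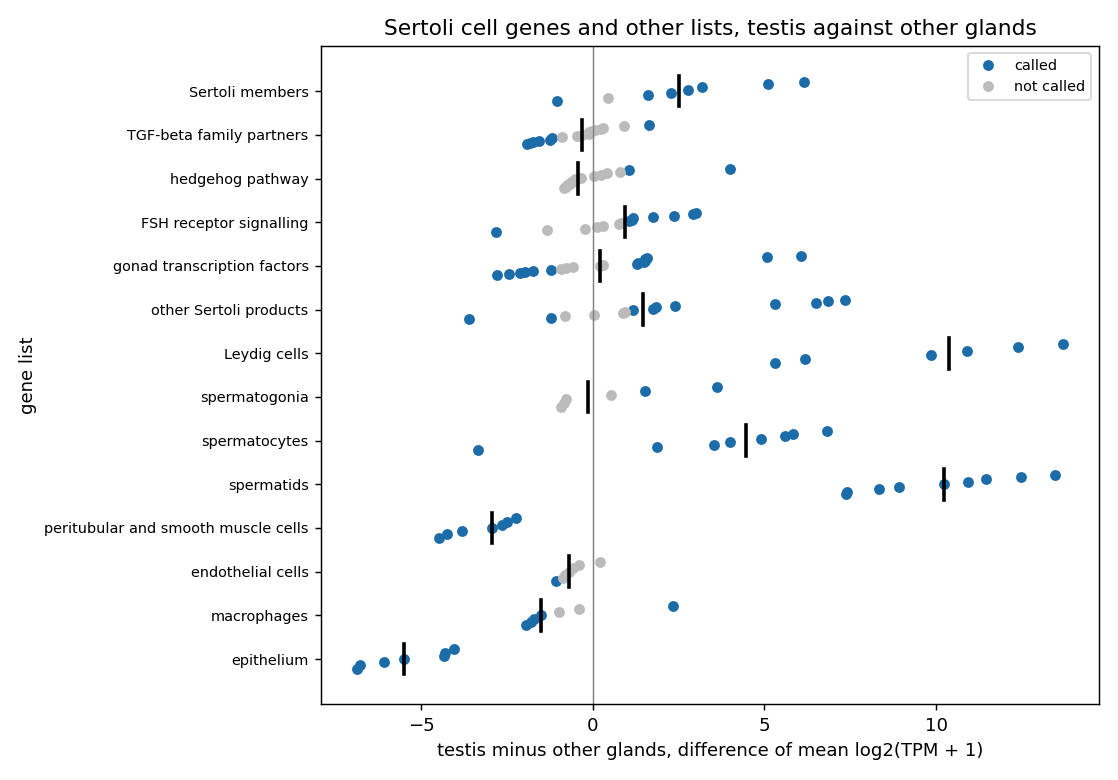
Each point is 1 gene, placed on the x axis by the log2 difference of testis from the other glands, in blue when called and grey when not, and the bar is the median of the list. The Sertoli cell genes have a median of 2.52, below the spermatid and Leydig lists and above the TGF-beta and hedgehog partners.

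The second question was whether the inbred line and its source breed differ in these genes. None of the 8 members was called between DSE and BMI testis in limma, where 0.397% of all genes were called, and 1 member, INHA, had an unadjusted p below 0.05, as had 12.8% of all genes tested. All 8 log2 differences were above 0, with a median of 0.46 beside -0.05 over all genes tested. In 2 members, INHBB and INHA, all DSE testes lay above all BMI testes, as they did in 7.69% of all genes tested. Without DSE testis replicate 2 the median over the members was 0.16 beside -0.06 over all genes tested, and FSHR was no longer above 0.

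INHA had a mean of 49.1 ± 10.3 TPM (SD, n = 3) in BMI testis and 135 ± 29.5 TPM (SD, n = 3) in DSE testis. The log2 difference was 1.44 ± 0.25 (SE; 95% interval 0.85 to 2.03; adjusted p = 0.083). Without DSE testis replicate 2, which had the highest value, it was 1.27 ± 0.19 (SE; adjusted p = 0.036) and INHA was called, with 1.26% of all genes called. OBSL1, which shares exonic bases with INHA, had 28.4, 16.4 and 25.9 TPM in BMI testis and 29.8, 60.5 and 34.4 TPM in DSE testis, so its DSE libraries also lay above its BMI libraries, and its part in the INHA difference was not tested. In 1 fit of all 30 libraries, in which the glands share 1 estimate of spread, the adjusted p was 4.60e-05. Iso-seq counted 8 reads of INHA in BMI testis, or 17.6 RPM (exact Poisson 95% interval 7.59 to 34.6), and 17 in DSE testis, or 37.1 RPM (21.6 to 59.5). These intervals overlap, and with 1 library each the breeds were not compared.

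Within each testis library INHA can be set against the other 7 members. The ratio of INHA to their geometric mean was 6.82, 4.42 and 8.20 in BMI and 17.3, 9.84 and 10.2 in DSE. All 3 DSE values lay above all 3 BMI values, also in DSE testis replicate 1, where the other 7 members had the lowest geometric mean of the 6 libraries, 6.84 TPM.

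None of the other 7 members passed the test. The log2 differences of DSE from BMI were 0.61 ± 0.29 (SE; adjusted p = 0.42) for AMH, 0.57 ± 0.39 (SE; adjusted p = 0.53) for SOX9, 0.47 ± 0.26 (SE; adjusted p = 0.47) for INHBB and 0.46 ± 0.42 (SE; adjusted p = 0.63) for DHH. GATA4, FSHR and WT1 differed by 0.34, 0.34 and 0.27, with adjusted p of 0.58, 0.73 and 0.64. The 95% intervals of these 7 reached from -0.69 to 1.48. AMH was 0.97 with a pseudocount of 0.1 and GATA4 0.12 on Ensembl transcripts only, neither called. Without DSE testis replicate 2 the differences were 0.01 for DHH, -0.004 for FSHR, 0.08 for WT1, 0.11 for GATA4, 0.20 for SOX9, 0.33 for INHBB and 0.39 for AMH.

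**Figure D4:**
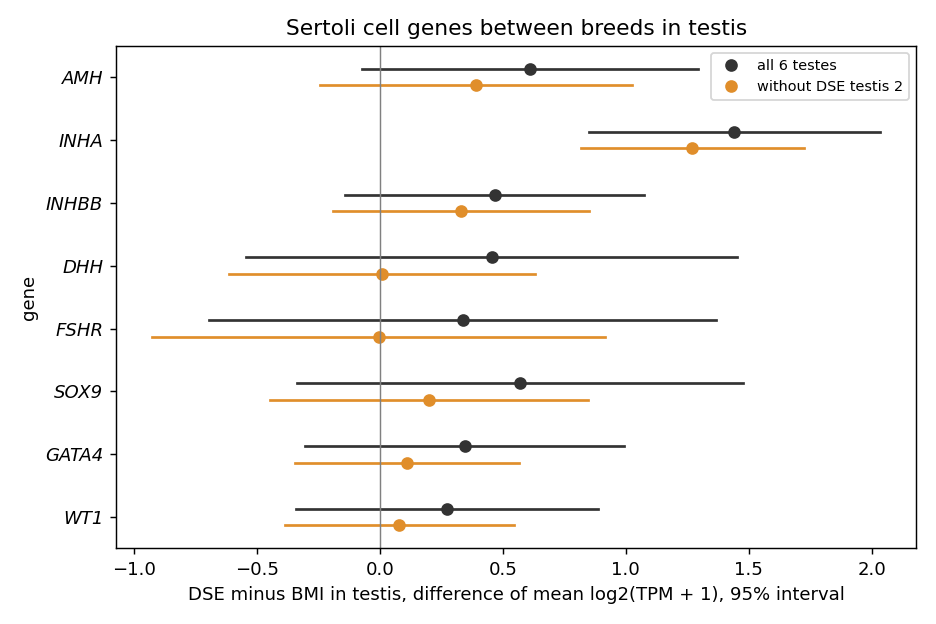
Points are log2 differences of DSE from BMI testis and lines their 95% intervals from limma, for all 6 testes in black and without DSE testis replicate 2 in orange. INHA is the member whose interval lies above 0 in both, and DHH and FSHR move to about 0 when that library is left out.

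No gene of the other lists was called between breeds in testis. The median log2 difference was 0.58 for the other Sertoli products, 0.65 for the Leydig list, -0.85 for the spermatocyte list and -0.62 for the spermatid list. Without DSE testis replicate 2 these medians were 0.17, 0.22, -0.42 and 0.14, and LHX2 and UCHL1 were called higher in DSE. Of the 15 member transcripts that passed the filter 0 were called between breeds, beside 0.23% of all transcripts.

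In the other glands 0 members were called between breeds, in epididymis (0% of all genes called), vesicular gland (0.124%), prostate gland (0.145%) and bulbourethral gland (0.0431%). The lowest unadjusted p was 0.034, for WT1 in prostate gland, with a log2 difference of 1.11 ± 0.41 (SE; adjusted p = 0.16). WT1 there had 0.287, 1.67 and 0.0282 TPM in BMI and 2.98, 1.27 and 2.88 TPM in DSE, so the groups overlapped. Over all genes the median breed difference was -0.31 in vesicular gland and 0.27 in prostate gland.

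Whether the breed difference in testis departs from that in the other glands was tested as an interaction. INHA was called, with a difference of 1.56 ± 0.24 (SE; adjusted p = 9.05e-05), and the other 7 members were not, beside 3.86% of all genes. It was 1.39 (adjusted p = 0.00017) without DSE testis replicate 2, when 2.48% of all genes were called. With a pseudocount of 0.1, which gives more weight to the low INHA values outside testis, it was 1.79 (adjusted p = 0.073) and not called. In the accessory glands INHA did not exceed 0.256 TPM, so a breed difference there could hardly show on this scale. The interaction thus mostly repeats the breed difference in testis (1.44), which was not called with all libraries. Its estimate of spread is also shared with glands in which INHA is near 0. Other listed genes called in this test included INSL3 (1.31) and HSD17B3 (1.22), Leydig cell markers, EGFL7 (2.55), an endothelial marker, and the germ cell markers ACRV1 (-1.45) and SPO11 (-1.07). Without DSE testis replicate 2 EGFL7 and LHX2 were called, and INSL3, HSD17B3, ACRV1 and SPO11 were not.

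The third question was how DSE testis replicate 2 compares with the other testes. All 8 members were highest in it, where 35.8% of all genes tested were highest in that library. Its DHH of 20.2 TPM was 2.13 times the highest of the other 5, and its SOX9 of 37.3 TPM 1.74 times. The ratio to the highest of the others was 1.45 for FSHR, 1.43 for INHA, 1.36 for GATA4, 1.32 for INHBB and 1.28 for WT1 and 1.27 for AMH. All 8 were still highest with size factors over the 6 testes, an alternative added after seeing the data. There is no test of 1 library, and this is a description.

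**Figure D5:**
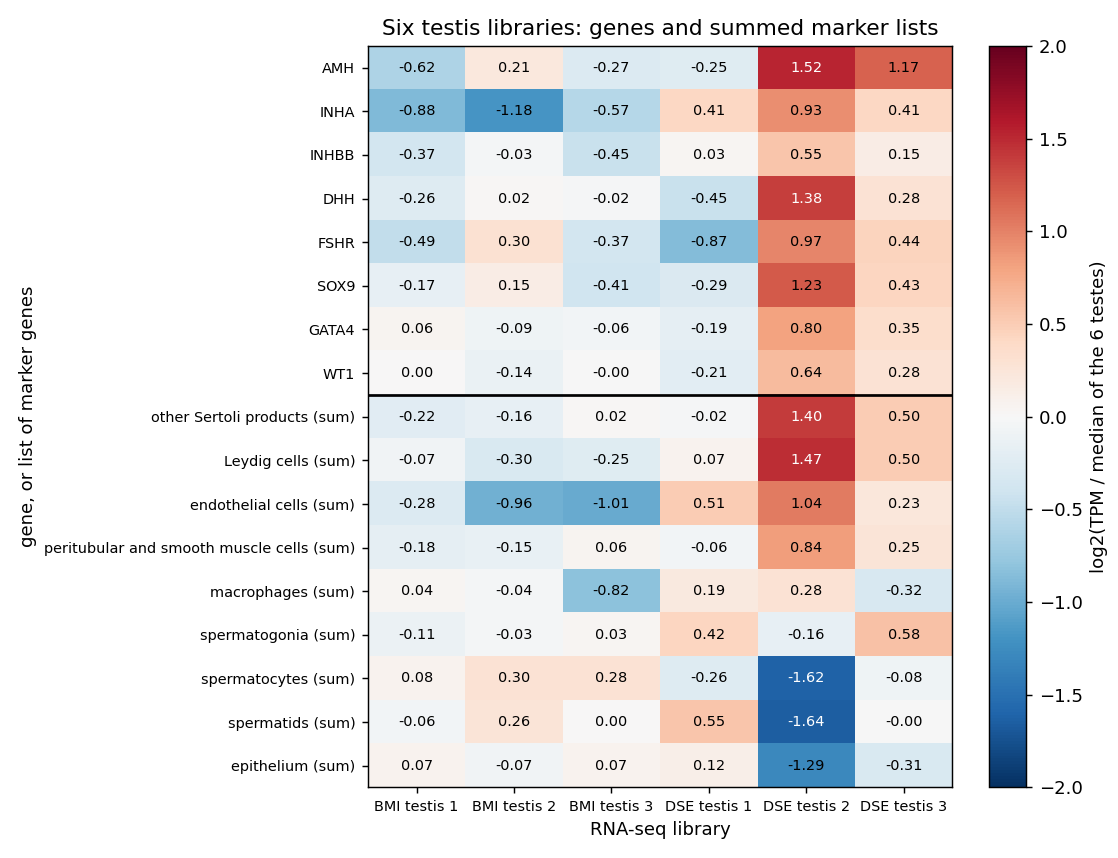
Each cell gives log2 of TPM over the median of the 6 testes, for the 8 genes above the line and for summed marker lists below it, with 1 column for each testis library. In DSE testis replicate 2 all 8 genes are above the median and spermatocyte, spermatid and epithelial sums are below it.

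The rise was uneven among the members. In log2(TPM + 1) against the mean of the other 5 testes, the library was higher by 1.34 for DHH, 1.28 for INHA, 1.23 for SOX9 and 1.02 for FSHR, but by 0.63 for WT1 and 0.61 for INHBB, beside a median of -0.01 over all genes tested. The ratio of GATA4 to WT1 stayed between 1.497 and 1.74 in the 6 testes, and that of DHH to WT1 was 0.653 in this library and 0.327 to 0.437 in the others. All 9 spermatid markers and 7 of 8 spermatocyte markers were lowest in this library, all 6 Leydig markers and 12 of 15 other Sertoli products highest, and 6 of 7 markers each of endothelial and of peritubular and smooth muscle cells highest. Of all genes tested 35.8% were highest in it, and the share that was lowest in it was not counted. Of the partner lists, 15 of 21 genes of the TGF-beta family, 6 of 14 of the hedgehog pathway, 5 of 14 downstream of FSHR and 10 of 20 gonad factors were highest there, as were 5 of 7 macrophage markers. TPM has a fixed sum in every library, and the part of the lower germ cell transcripts in the members' values was not tested.

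The members varied together over the 6 testes. The Pearson r of log2(TPM + 1) over the 28 pairs of members ranged from 0.37 to 0.99 with a median of 0.88, and without DSE testis replicate 2 from -0.13 to 0.97 with a median of 0.68. INHA had a median r of 0.65 to the other 7 members, where the 21 pairs among those 7 had a median of 0.90. These medians were 0.30 and 0.74 without DSE testis replicate 2. These values are a description over 6 libraries that share their composition.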

How the data were processed

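RNA-seq libraries of 5 glands from BMI and DSE boars, 3 for each breed and gland, and 10 Iso-seq libraries were used. The deposited TPM values were made by the authors with salmon 1.9.0 from an annotation merged from Ensembl and the Iso-seq isoforms outside the full and incomplete splice matches, on Sscrofa11.1. The labels name rRNA depletion and the methods poly-T beads. The deposited Iso-seq counts are full-length reads per isoform, without normalization. The small RNA table was not used, and 0 columns of the RNA-seq table were unmapped.

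TPM was summed by gene name, filtered at 1 TPM in 3 libraries and analysed as log2(TPM + 1) with limma 3.58.1 in R 4.3.3 (empirical Bayes with trend, Benjamini-Hochberg). Gland comparisons used 1 fit of 30 libraries and breed comparisons 1 fit for each gland. Called genes had an adjusted p below 0.05 and a log2 difference of at least 1. Tested on simulated data of 19911 genes with a planted log2 difference of 2, the fit recovered 97.5% of 200 genes between testis and the other glands and 60.5% between breeds in testis. The planted genes had a mean log2(TPM + 1) above 2 over all groups, and of the members only SOX9 did. The simulated spread was pooled over all glands, so these shares were not measured for the other members. Iso-seq intervals are exact Poisson (95%), and a count of 0 allows 3 reads. Sequences were read from the RefSeq genome of this build.

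The members and lists were chosen with earlier results of these data known. Of each other list, up to 3 genes in each direction with the largest difference among called ones are named, with up to 5 called between breeds, and for each member the 3 most correlated genes and its leading transcript and isoform. PTCH1, GLI1, INHBA, AMHR2, genes called in the interaction, genes whose call changed without DSE testis replicate 2 and the uncalled spermatogonial markers are named outside this rule, and were chosen after their values were seen. GNAS, CREM, SHBG, HSD3B1 and DAZL were not found as gene names. Alternatives were a pseudocount of 0.1, no filter, size factors, no trend, Ensembl transcripts only, a replicate block, 1 fit of all libraries and leaving out each library. Software was Python 3.11.15 with pandas 2.3.3 and scipy 1.17.1. A few items that this rule would name are not reported here.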

Additional observations from a re-analysis of the deposited data

Results flagged for a closer look

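Of 34 groups of 6 libraries in which a member was not at 0 throughout, 6 held a library with a gap to the next one above Dixon's 95% critical value. Of the 33 groups with 2 or more libraries above 0 it was 5. The critical value passes about 1 in 20 groups of independent normal values. The groups here are TPM values, mix 2 breeds and share libraries, so the count cannot be set against that rate. DSE testis replicate 2 was highest in SOX9 (37.3 TPM against 12.0 to 21.4, gap over range 0.627) and in DHH (20.2 TPM against 5.70 to 9.46, gap over range 0.740). BMI vesicular gland replicate 2 was highest in SOX9 of that gland, with 60.9 TPM against 13.1 to 26.6 (gap over range 0.716). INHA in BMI vesicular gland replicate 1 was 0.256 TPM against at most 0.0204 (0.920), and in DSE prostate gland replicate 1 it was 0.0240 TPM against 0, where the gap over range is 1 for any value above 0 and says nothing of its size. GATA4 in DSE epididymis replicate 3 was 0.183 TPM against at most 0.0639 (0.682). The INHA and GATA4 values are all below 1 TPM.

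INHA differed between testis and the other glands in its breed difference, by 1.56 on the log2 scale (adjusted p = 9.05e-05 in limma). Outside testis INHA did not exceed 1.33 TPM, so this value mostly repeats the breed difference in testis.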

How the results depend on the processing

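Depth is unknown from TPM, and the calls depend on a fixed size of 1 on the log2 scale. With 3 libraries in each breed, 60.5% of planted breed differences of 2 in testis were recovered. This share is for genes with a higher mean level over the glands than all members but SOX9. Members called between testis and the other glands numbered 7 under each of 6 alternatives and 6 or 7 when 1 library was left out. SOX9 was the lost member, at -0.99 to -0.87 where the call was lost, and at -1.23 to -0.87 over all left-out libraries. With size factors the median over all genes moved from 0.31 to 0.13, and no member changed direction.

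With a pseudocount of 0.1, genes called lower in testis rose from 2537 to 3831, genes called lower in the interaction were 288, members called in it 0, and genes called higher in DSE testis 48. With no filter 9 genes were called higher and 22 lower in DSE testis. With Ensembl transcripts only, 3759 genes were called higher in testis (6877 in the main analysis), 71 higher and 192 lower in the interaction, and 5 higher and 10 lower in DSE testis. The fit of all 30 libraries called 218 genes higher and 731 lower in DSE testis, and 1 member, INHA. Leaving out 1 library gave 4 to 139 genes higher and 18 to 109 lower in DSE testis (25 and 53 in the main analysis), with 0 or 1 members, and 117 to 297 higher and 306 to 1228 lower in the interaction, with 1 or 2 members. The 2 were INHA and, without DSE testis replicate 1, AMH (1.17, adjusted p = 0.018). FSHR between breeds ranged from -0.0045 without DSE testis replicate 2, against its direction with all libraries, to 0.78, and was called in no fit. INHA between breeds had an adjusted p of 0.036 to 0.344 over the left-out libraries. The causes were not tested.

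Replicate numbers were not taken to pair libraries, since the labels do not tie a library to an animal. Of 60 pairs of the same breed and number in 2 glands, 20 correlated above 0.1 (r -0.30 to 0.39). Pairs of different numbers were not set beside them, so these values cannot show whether libraries of the same number share a boar. In a fit with the replicate number as a block, 7 members were called in testis against the other glands, 0 between breeds in testis and 1 in the interaction, and 30 genes were called higher and 46 lower in DSE testis. Other calls of the members that were lost lay between pairs of glands outside testis or for INHBB against epididymis, 0.71 without DSE epididymis replicate 2.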
